A study of Mus musculus with 9 samples.

Results

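The homeobox genes *Alx1*, *Alx4*, *Prrx1*, *Prrx2*, *Shox2*, *Barx1*, *Pax3* and *Pax7* were followed through mouse corneal development as a list of named genes, 8 of the 19369 genes with an estimate above 0 in any sample, and each was found by its Entrez Gene identifier. RNA-Seq had been performed on wild-type C57BL/6 embryos, with 3 biological replicates per stage and no treatment. The tissues were periocular neural crest (pNC) of E10.5 embryos and cornea of E14.5 and E16.5 embryos, where E stands for embryonic day. Each sample held pooled tissue of several eyes. Dispase had been used to free the pNC of optic cup, lens vesicle and ectoderm, whereas the corneas were dissected whole, so stage, tissue and cell layers change together and cannot be told apart. Between 8745161 and 9069023 expected counts per sample stood behind the values.

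Homeobox genes encode transcription factors that bind DNA through a fold of helices, the homeodomain, whose last helix lies in the major groove and reads the bases. The Alx, Prrx and Shox proteins belong to the paired-related class and are known from the neural crest mesenchyme that builds the face, the front of the skull and the tissue around the eye, and, for Prrx and Shox2, from the limb as well. Pax3 and Pax7 carry a second DNA-binding part, the paired domain, and mark early neural crest and the precursors of skeletal muscle. Barx1 belongs to a different homeodomain class, the Bar-related proteins, and is known from jaw and tooth mesenchyme. The crest cells of the pNC give rise to the stroma and the inner lining of the cornea.

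The piece of each gene that encodes part of this DNA-reading helix is shown because it sets the list apart into kinds and shows how far the paralogs differ in bases. The bases encode 10 residues from position 48 of the homeodomain, and the capitals mark the codon of residue 50, a residue known to steer which bases are preferred.
Alx1: tggtttCAAaatcgaagggccaagtggaga
Alx4: tggttcCAGaaccggagggccaagtggcga
Prrx1: tggtttCAGaaccgaagagccaagttccgc
Prrx2: tggttcCAGaaccgccgtgccaagtttcgc
Shox2: tggtttCAAaatcgaagagctaagtgtaga
Barx1: tggtatCAAaatcggaggatgaaatggaag
Pax3: tggtttAGCaaccgccgtgcaagatggagg
Pax7: tggttcAGTaaccggcgtgcccgctggcgt
The codon encodes glutamine in *Alx1*, *Alx4*, *Prrx1*, *Prrx2*, *Shox2* and *Barx1* and serine in *Pax3* and *Pax7*. Of the 30 bases, 25 were identical between *Alx1* and *Alx4*, 25 between *Prrx1* and *Prrx2*, 22 between *Pax3* and *Pax7*, and 27 between *Alx1* and *Shox2*. Within each of the first 3 pairs the differing bases leave all 10 encoded residues the same. *Alx1* and *Shox2* share more bases than *Alx1* and *Alx4* but differ in an encoded residue. *Barx1* had at most 22 in common with any of the others, and 13 with *Pax7*. The sequences were read from GENCODE transcripts on GRCm38, and each lies within a single exon, which is exon 6 of 9 in *Pax3* (chr1:78122724-78122753, minus strand) and *Pax7* (chr4:139780894-139780923, minus strand). It is exon 3 in *Alx1* (chr10:103022273-103022302, minus strand), *Alx4* (chr2:93675299-93675328, plus strand), *Prrx1* (chr1:163257910-163257939, minus strand) and *Prrx2* (chr2:30879495-30879524, plus strand), and also in *Shox2* (chr3:66975878-66975907, minus strand) and *Barx1* (chr13:48665450-48665479, plus strand).

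Paralogs shared no stretch of transcript as long as 50 bases. The longest run in common was 19 bases for *Alx1* and *Alx4*, 19 for *Prrx1* and *Prrx2*, and 26 for *Pax3* and *Pax7*. Runs of 50 bases were shared with transcripts of unrelated genes by *Alx4* (5 genes), *Pax3* (73) and *Prrx1* (244), and these were also the members with expected counts that were not exactly whole, in 8 of 9 samples for *Alx4* and in all 9 for the others, so reads of these 3 genes may have been divided by the authors' software. *Shox2* overlaps *Rsrc1* on the opposite strand. Since the strand of the libraries is not stated in the sources used here, reads of these neighbours cannot be told apart.

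Most of the 8 genes were far lower in cornea than in pNC, *Prrx1* was higher, and *Barx1* and *Pax7* were listed in no cornea sample. Levels are given as FPKM, in which fragments are scaled to the length of the transcript and to the mapped total of the library, so that genes of different length can be compared. Fold changes and adjusted p-values come from edgeR's quasi-likelihood test on the expected counts with Benjamini-Hochberg adjustment over all 14771 genes tested. A gene was called at an adjusted p under 0.05 with a log2 fold change of at least 1 in either direction. From E10.5 to E14.5, 6 of the 8 genes were called lower and 0 higher, where 7.97% of all genes tested were called lower and 13.6% higher. At an adjusted p under 0.05 alone, 7 were lower and 1 higher, against 27.5% and 28.9% of all genes. From E10.5 to E16.5, 7 were called lower and 0 higher by the same test, where 15.4% of all genes were called lower and 19.4% higher, and the adjusted p alone again passed 7 lower and 1 higher, against 34.7% and 35.2%. From E14.5 to E16.5, 2 were called lower and 0 higher, against 5.47% and 6.26% of all genes, and the adjusted p alone passed the same number of members, against 17.5% of all genes in either direction. Every cornea sample was below every pNC sample in 7 of the 8 genes, as in 29.6% of all genes tested for E14.5 and 44.1% for E16.5. Every E16.5 sample was below every E14.5 sample in *Alx1*, *Alx4* and *Prrx2*, as in 38.3% of all genes tested. The median log2 fold change of the 8 genes was -2.89, -4.55 and -0.24 in these comparisons, where that of all genes tested was within 0.03 of 0, and placing *Barx1* and *Pax7* at their bounds left the 3 medians as they were. All 8 passed the filter on low counts, *Alx1*, *Pax3*, *Barx1* and *Pax7* only with the help of their E10.5 counts, so that these 4 genes had to differ from pNC to be tested at such cornea levels. Less RNA of a gene per cell and fewer cells that express it cannot be told apart in such bulk samples.

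**Figure D1:**
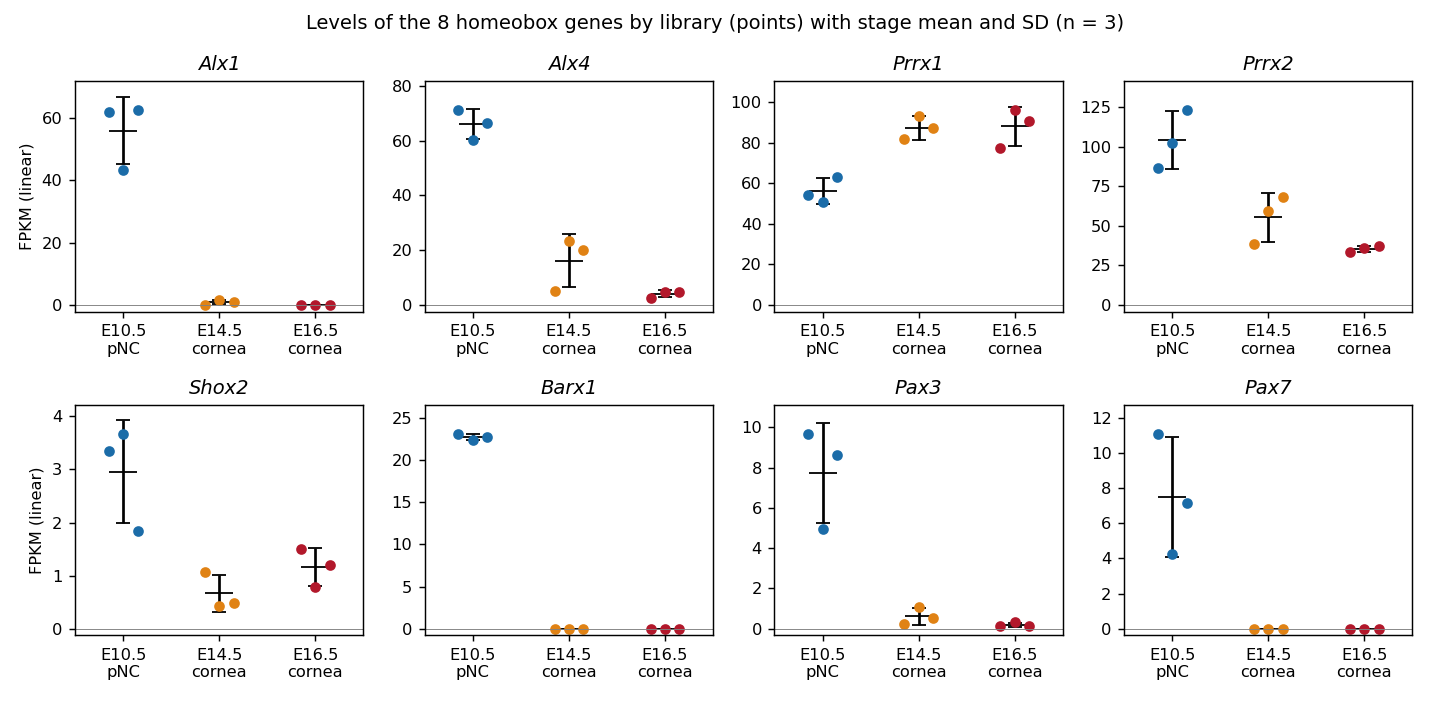
FPKM (linear axis, scaled per gene) of each of the 8 genes in each sample, with points for replicates 1 to 3 from left to right and bars for the stage mean ± SD (n = 3). *Prrx1* is the gene whose cornea points (77.6 to 96.1 FPKM) all lie above its pNC points (50.6 to 63.3), and *Barx1* and *Pax7* lie at 0 in all 6 cornea samples.

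*Alx1*, which in humans is required for formation of the middle face and the eye (Entrez 216285, chr10:103007847-103029549), had FPKM of 61.9, 43.4 and 62.5 in the pNC replicates. It was at 0.14, 1.46 and 0.90 in the E14.5 corneas and at 0, 0.05 and 0.09 in the E16.5 corneas. The 3 stages did not overlap at any point, and the lowest pNC sample stood far above the highest cornea sample. The mean of 55.9 ± 10.8 (SD, n = 3) at E10.5 was 67.1-fold that of 0.83 ± 0.66 at E14.5. On the log2 scale the fitted change was -6.08 (SE 0.38, edgeR adjusted p = 6.3e-07) to E14.5 and -9.96 (SE 0.56, edgeR adjusted p = 1.7e-07) to E16.5. At E16.5 the 3 corneas together held 3 counts of *Alx1*, beside 55 at E14.5 and 3748 at E10.5. The ratio of E10.5 to E16.5 counts per library total was therefore 1231, with a 95% interval of 421 to 5973 that covers counting error only. Leaving out E14.5 replicate 2, the highest E14.5 sample, moved the change to E14.5 to -6.73, and leaving out E16.5 replicate 3 moved the change to E16.5 to -10.81. With each replicate left out in turn, the change to E14.5 ran from -6.73 to -5.57 and that to E16.5 from -10.81 to -9.42. The further step from E14.5 to E16.5 was called (log2 fold change -3.88, SE 1.03, edgeR adjusted p = 0.0145), but it rests on those 3 counts, was -4.74 without E16.5 replicate 3 and was lost without E14.5 replicate 2 (edgeR adjusted p = 0.0551) or E16.5 replicate 1 (edgeR adjusted p = 0.0539).

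*Alx4*, known from skull vault closure and limb patterning (Entrez 11695, chr2:93642434-93681341), started at a similar level and fell less. Its FPKM was 71.1, 60.3 and 66.6 in pNC, 5.18, 23.3 and 20.1 at E14.5, and 2.63, 4.75 and 4.92 at E16.5. No stage overlapped another, although E14.5 replicate 1 lay close to the E16.5 corneas. The E14.5 mean of 16.2 ± 9.66 was 24.5% of the pNC mean of 66.0 ± 5.404, and the E16.5 mean of 4.10 ± 1.28 was 6.21% of it (SD, n = 3). All 3 steps were called, with log2 fold changes of -2.04 (SE 0.42, edgeR adjusted p = 0.0020) to E14.5, -3.86 (SE 0.47, edgeR adjusted p = 2.7e-05) to E16.5, and -1.82 (SE 0.45, edgeR adjusted p = 0.0101) between the corneas.

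Within each sample, the ratio of *Alx1* to *Alx4* tells whether the paralogs changed alike. The ratio of FPKM was 0.87, 0.72 and 0.94 in the pNC replicates, so both genes were near the same level. There was 34.6, 15.9 and 22.1 times as much *Alx4* as *Alx1* at E14.5 and 264, 79.3 and 49.3 times as much at E16.5, where 264 is set by the 0.01 added to each FPKM because *Alx1* was at 0. On the log2 scale the ratio averaged -0.26 ± 0.20 in pNC (SD, n = 3) and -5.59 ± 1.46 in cornea (SD, n = 6), a difference of -5.33. In a two-sided exact permutation test the p was 0.0238, the smallest that 3 against 6 samples can give, and it stayed 0.0238 after adjustment over the 2 ratios tested. Adding 0.1 or 1 in place of 0.01 gave differences of -4.28 and -2.41.

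*Prrx1* and *Prrx2* encode closely related proteins of head and limb mesenchyme and differed from pNC in opposite directions. *Prrx1* (Entrez 18933, chr1:163245119-163315145) had 54.4, 50.6 and 63.3 FPKM in pNC, 81.7, 93.5 and 87.3 at E14.5, and 77.6, 96.1 and 90.6 at E16.5. Every cornea sample was above every pNC sample, which held for 31.4% of all genes tested with E14.5 and for 33% with E16.5, and the cornea stages overlapped. Mean FPKM was 56.1 ± 6.51, 87.5 ± 5.90 and 88.1 ± 9.497 in stage order (SD, n = 3), or 1.56-fold and 1.57-fold the pNC level in the corneas. The fitted log2 changes of 0.62 (SE 0.12, edgeR adjusted p = 0.0011) and 0.81 (SE 0.12, edgeR adjusted p = 1.0e-04) passed the adjusted p, but were below the minimum of 1 and were not called. From E14.5 to E16.5 the change was 0.19 (SE 0.12, edgeR adjusted p = 0.24).

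*Prrx2* (Entrez 20204, chr2:30845064-30881251) was the most abundant of the 8 genes in pNC, at 86.8, 103 and 123 FPKM. It was at 38.6, 59.2 and 68.5 at E14.5 and at 33.3, 36.1 and 37.3 at E16.5. The stages did not overlap, with the lowest E14.5 value, that of replicate 1, only just above the highest E16.5 value. Such a lack of overlap between the corneas, with E16.5 lower, held for 38.3% of all genes tested. The mean went from 104 ± 18.3 to 55.4 ± 15.3 and 35.6 ± 2.08 (SD, n = 3). To E14.5 the fitted log2 change was -0.92 (SE 0.19, edgeR adjusted p = 0.0022), short of the fold minimum, and to E16.5 it was -1.40 (SE 0.20, edgeR adjusted p = 8.5e-05), which was called. Between the corneas it was -0.48 (SE 0.20, edgeR adjusted p = 0.0849), not called, and -0.69 (edgeR adjusted p = 0.0017) without E14.5 replicate 1, still under the fold minimum.

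The ratio of *Prrx1* to *Prrx2* FPKM turned over between the tissues. It was 0.63, 0.49 and 0.51 in the pNC replicates, 2.12, 1.58 and 1.28 at E14.5, and 2.33, 2.66 and 2.43 at E16.5, so that *Prrx2* was the higher paralog in every pNC sample and *Prrx1* in every cornea. The log2 ratio averaged -0.88 ± 0.18 in pNC (SD, n = 3) and 1.001 ± 0.41 in cornea (SD, n = 6), a difference of 1.88 or 3.69-fold. The two-sided exact permutation p was 0.0238, again the smallest possible and unchanged by adjustment over the 2 ratios. This ratio hardly moved with the value added to FPKM, at 1.88 with 0.1 and 1.86 with 1.

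**Figure D2:**
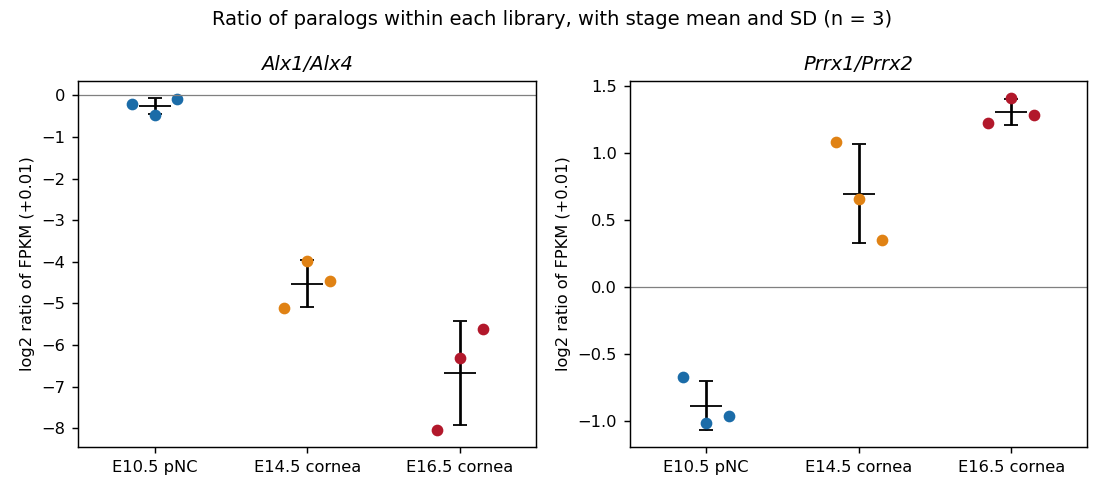
Log2 ratio of FPKM (0.01 added to each value) of *Alx1* to *Alx4* and of *Prrx1* to *Prrx2* in each sample, with the stage mean and SD (n = 3). The *Alx1*/*Alx4* ratio drops from about -0.26 in pNC to below -3.9 in every cornea, and the *Prrx1*/*Prrx2* ratio is below 0 in all 3 pNC samples and above 0 in all 6 corneas.

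The composition of the list changed from a mixture to *Prrx1* and *Prrx2*. The FPKM of the 8 genes summed to 323 ± 32.0 in pNC, 161 ± 29.7 in E14.5 cornea and 129 ± 12.3 in E16.5 cornea (SD, n = 3). *Prrx1* made up 17.3% ± 0.43 of that sum in pNC, 55.2% ± 8.06 at E14.5 and 68.2% ± 1.25 at E16.5. Together the Prrx genes held 49.6%, 89.2% and 95.8%. In pNC the order of mean levels was *Prrx2*, *Alx4*, *Prrx1*, *Alx1*, *Barx1*, *Pax3*, *Pax7* and *Shox2*. The ranges of *Alx4* and *Prrx1*, of *Prrx1* and *Alx1*, and of *Pax3* and *Pax7* overlapped in pNC, whereas the other neighbours in this order did not. At E14.5 the order was *Prrx1*, *Prrx2* and *Alx4*, without overlap, followed by *Alx1*, *Shox2* and *Pax3* with means under 1 FPKM and overlapping ranges. At E16.5 *Alx4* was followed by *Shox2*, *Pax3* and *Alx1*, and these neighbours did not overlap.

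*Shox2*, known from the palate, the limb and the pacemaker of the heart (Entrez 20429, chr3:66971723-66981771), was the lowest of the 8 genes in pNC. Its FPKM was 3.35, 3.67 and 1.85 in pNC, 1.07, 0.43 and 0.49 at E14.5, and 1.51, 0.78 and 1.20 at E16.5. Between 6 and 53 counts per sample stood behind these values. Each cornea sample was below each pNC sample, and the cornea stages overlapped. Lower *Shox2* was called in E14.5 cornea (log2 fold change -2.16, SE 0.41, edgeR adjusted p = 0.0012) and at E16.5 (-1.19, SE 0.38, edgeR adjusted p = 0.0161). The E16.5 call was lost without E10.5 replicate 1 (edgeR adjusted p = 0.0532), E10.5 replicate 2 (0.0659) or E16.5 replicate 2 (0.0688). From E14.5 to E16.5 the log2 change was 0.96 (SE 0.45, edgeR adjusted p = 0.12), not called, whereas without E14.5 replicate 1 it was 1.47 (edgeR adjusted p = 0.0290).

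*Barx1* (Entrez 12022, chr13:48663036-48666507) had closely matching values of 23.1, 22.4 and 22.8 FPKM in the pNC replicates, from 281, 275 and 272 counts. None of the 6 cornea samples listed the gene. A count of 0 allows up to 3 counts per library, or about 0.25 FPKM, so *Barx1* was at least 91.9-fold lower at E14.5 and at least 91.7-fold lower at E16.5 than its pNC mean of 22.8 ± 0.36 (SD, n = 3). Both steps were called (edgeR adjusted p = 1.6e-06 and 7.7e-07).

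*Pax3* (Entrez 18505, chr1:78101267-78197136) had 9.67, 4.94 and 8.63 FPKM in pNC, 0.24, 1.06 and 0.55 at E14.5, and 0.14, 0.31 and 0.15 at E16.5. Every cornea sample was below every pNC sample, and the cornea stages overlapped through E14.5 replicate 1. The mean of 7.75 ± 2.49 in pNC was 12.6-fold that of 0.62 ± 0.41 in E14.5 cornea and 38.7-fold that of 0.20 ± 0.10 in E16.5 cornea (SD, n = 3). *Pax3* was called lower at E14.5 (log2 fold change -3.62, SE 0.41, edgeR adjusted p = 4.0e-05) and at E16.5 (-5.24, SE 0.49, edgeR adjusted p = 4.3e-06). Without E14.5 replicate 2, the highest E14.5 sample, the change to E14.5 was -4.23, and without E14.5 replicate 1, the lowest, it was -3.22. Between the corneas the change was -1.62 (SE 0.62, edgeR adjusted p = 0.0658), not called, and without E14.5 replicate 1 it was -2.01 (edgeR adjusted p = 0.0105).

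*Pax7* (Entrez 18509, chr4:139737059-139833530) had 11.1, 4.25 and 7.16 FPKM in pNC and was listed in none of the corneas. With up to 3 counts per library allowed, or about 0.08 FPKM, it was at least 94.6-fold lower at E14.5 and at least 94.4-fold lower at E16.5, and both steps were called (edgeR adjusted p = 7.5e-05 and 3.7e-05). Within pNC, replicate 1 was the highest and replicate 2 the lowest for both *Pax3* and *Pax7*, whereas *Barx1* hardly varied.

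**Figure D3:**
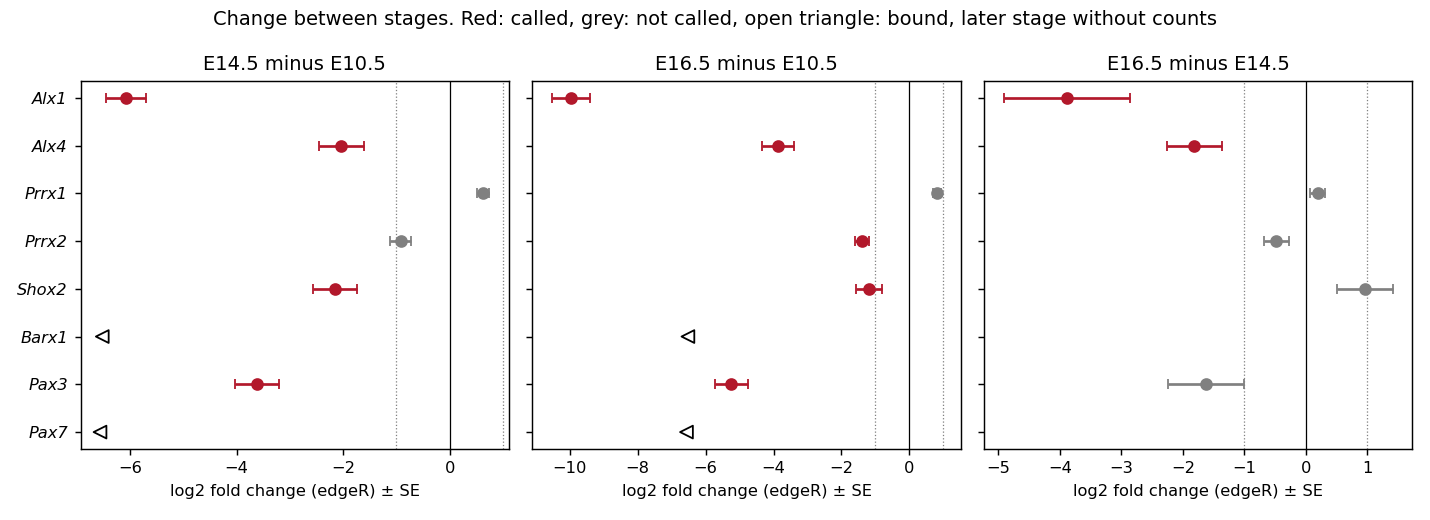
Log2 fold change (edgeR) with its SE for each of the 8 genes in the 3 comparisons, with dotted lines at the minimum of 1 in either direction. Red points were called, grey points were not, and open triangles are bounds for *Barx1* and *Pax7*, whose later stage had no counts and which are left out between the corneas.

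Markers of other tissues, among them muscle precursors and neuroectoderm in which Pax3 and Pax7 are active, also differed between pNC and cornea. Of 9 markers of head muscle precursors, *Myf5*, *Myod1* and *Myog*, the factors that start and drive muscle differentiation, were at 0.80 to 3.88 FPKM in pNC and at 0 in all corneas. The 9 markers summed to between 23.95 and 26 FPKM in pNC, 4 and 5.62 at E14.5, and 6.88 and 7.29 at E16.5, and 6 of 9 were called lower and 1 higher at each cornea stage. The exception was *Chrna1*, a subunit of the muscle acetylcholine receptor, which was at 1.17 to 1.55 FPKM in pNC, 3.17 to 5.30 at E14.5 and 6.49 to 6.72 at E16.5 and so made up most of the cornea sums. Neuroectoderm and neurons were represented by 10 markers, of which 6 were called lower in E14.5 cornea and 7 in E16.5 cornea, and which summed to 108 to 207 FPKM in pNC, 5.19 to 7.01 at E14.5 and 2.73 to 4.20 at E16.5. In pNC replicates 1 to 3 the sum was 192, 207 and 108 FPKM, of which *Tubb3* alone held 117, 124 and 71.7. Markers of Schwann cells and glial crest, 6 in number, summed to 30.9 to 42.2 FPKM in pNC, 21.9 to 29.4 at E14.5 and 37.6 to 44.2 at E16.5, with 3 called lower at E14.5 and, at E16.5, 2 lower and 2 higher. *Sox10*, a crest and glial factor, was at 12.3 to 18.1 FPKM in pNC and 1.89 to 3.04 at E16.5, and *Foxd3*, a factor of early crest, at 2.24 to 3.29 and 0.63 to 1.33, both called lower, whereas *Erbb3* (4.67 to 6.32 and 20.5 to 27.6) and *Mbp* (2.81 to 3.49 and 6.17 to 8.20) were called higher. Of 6 markers of vascular endothelium, 5 were called lower at each cornea stage, and their sum was 115 to 180 FPKM in pNC, 48.8 to 84.6 at E14.5 and 23.1 to 36.0 at E16.5. Red blood cell markers summed to 5044 to 7885, 1822 to 2344 and 649 to 1357 FPKM in stage order, with 4 called lower in E14.5 cornea and 5 in E16.5 cornea. Much of this fall lay in the hemoglobin genes *Hbb-bh1*, *Hba-x* and *Hbb-y*, the last at 1870 to 2893, 117 to 550 and 1.74 to 4.01 FPKM. *Hba-a1*, another hemoglobin gene, overlapped between the stages, at 1142 to 1746, 1176 to 2187 and 639 to 1341 FPKM, so the sum does not measure blood content alone. The part of these tissues in the values of the 8 genes, *Pax3* and *Pax7* included, was not tested.

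Markers of mesenchyme were not lower in cornea as a sum. The total of 8 markers of crest-derived mesenchyme was 718 to 806 FPKM in pNC, 918 to 1022 at E14.5 and 1130 to 1247 at E16.5, with 2 of 8 called higher and 1 lower at each cornea stage. The defining markers of the labelled tissues were present, since 7 of 7 markers of keratocytes and stroma and 8 of 8 of corneal epithelium were called higher at both cornea stages than in pNC. Of 5 markers of corneal endothelium, the inner lining, 4 were called higher at each cornea stage, and *Cdh2* was called lower at E16.5. These 5 markers summed to 32.8 to 47.6 FPKM in pNC, 279 to 341 at E14.5 and 204 to 244 at E16.5. Epithelial markers summed to 25.2 to 40.8 FPKM in pNC, from which the ectoderm had been removed, to 578 to 2000 in E14.5 cornea and to 5100 to 7410 in E16.5 cornea. The part of the added epithelium in the lower *Alx*, *Prrx2*, *Shox2*, *Barx1* and *Pax* values was not tested.

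E14.5 replicate 1 stood apart from the other E14.5 corneas. On the line from the pNC mean to the E16.5 mean of log2(FPKM + 1), over genes with a mean of at least 5 FPKM in some stage, it lay 78.8% of the way, and the others lay at 55.7% and 59.9%. Its *Alx1* was 11.9% of the mean of the other E14.5 replicates, its *Alx4* 23.9%, its *Pax3* 29.8%, its *Prrx2* 60.4% and its *Shox2* 233%, each nearer to the E16.5 level, while its *Prrx1* was 90.4% of it. In this sample the keratocyte markers summed to 7046 FPKM, beside 2961 and 4620 in the other E14.5 samples, and the epithelial markers to 2000, beside 578 and 700. Without it, the log2 changes from E10.5 to E14.5 were -5.57 for *Alx1*, -1.61 for *Alx4*, -0.71 for *Prrx2* and 0.68 for *Prrx1*, and 6 genes were called as before. Between the corneas, 4 of the 8 genes were called without it in place of 2, *Alx1*, *Alx4* and *Pax3* lower and *Shox2* higher.

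**Figure D4:**
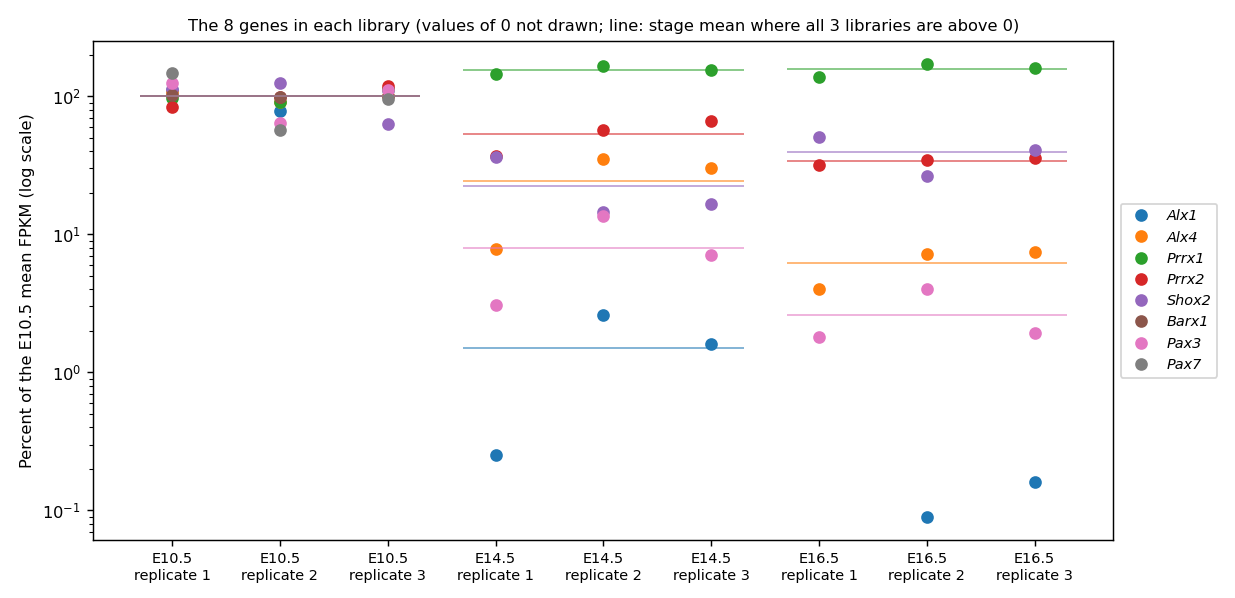
FPKM of each gene in each sample as a percentage of its own pNC mean, on a log axis, with lines for stage means. *Alx1*, *Alx4*, *Pax3* and *Prrx2* are lower in E14.5 replicate 1 than in the other E14.5 samples, and *Prrx1* is above 130% in all 6 corneas.

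The 8 genes were set beside other homeobox genes of the face and eye, a list of 38 of which 23 had enough counts to be tested. Of these, 14 were called lower and 6 higher at E14.5 than in pNC, 13 lower and 6 higher at E16.5, and 3 lower and 1 higher between the corneas, with medians on the log2 scale of -2.08, -3.15 and -0.16. Among the largest falls to E16.5 were those of *Lhx8*, known from tooth and palate mesenchyme, *Six2*, known from head and kidney mesenchyme, and *Gsc*, known from jaw and inner ear. *Six2* went from 104 ± 15.7 FPKM in pNC to 1.51 ± 0.73 in E14.5 cornea and 1.56 ± 0.61 in E16.5 cornea (SD, n = 3). *Lhx8* was at 7.64 ± 1.99 and *Gsc* at 9.43 ± 3.53 in pNC, and neither was listed at E16.5. The largest rises were those of *Pax6*, the eye and corneal epithelium regulator, from 7.48 ± 3.60 to 108 ± 32.96 and 204 ± 28.6 FPKM, and *Otx1*, from 5.54 ± 1.67 to 84.5 ± 4.92 and 67.8 ± 7.50 (SD, n = 3). *Pax6* and *Pax3*, which both carry a paired domain, thus moved in opposite directions.

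Of 32 transcription factors known from head mesenchyme, 30 were tested. Compared with pNC, 15 were called lower in cornea at each stage by edgeR, while 4 were called higher in E14.5 cornea and 5 in E16.5 cornea. Between the corneas 6 were called lower and 0 higher, and at an adjusted p under 0.05 alone 8 were lower and 5 higher. Medians were -1.16, -1.10 and -0.11 on the log2 scale. Among those with a mean of at least 5 FPKM in some stage, the largest falls to E16.5 were those of *Foxd1* (35.1 ± 6.47 to 0.02 ± 0.03 FPKM), *Tbx18* (7.34 ± 1.21 to 0.01 ± 0.01), *Eya1* (14.7 ± 2.03 to 0.18 ± 0.08) and *Foxl2* (37.3 ± 5.63 to 0.49 ± 0.15), a factor of the developing eyelid (SD, n = 3). The largest rises were those of *Twist2*, a factor of dermal and stromal fibroblasts, from 34.5 ± 4.34 to 254 ± 15.02 FPKM, and *Lmx1b*, which the anterior eye requires, from 7.14 ± 0.97 to 36.0 ± 5.86 (SD, n = 3).

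**Figure D5:**
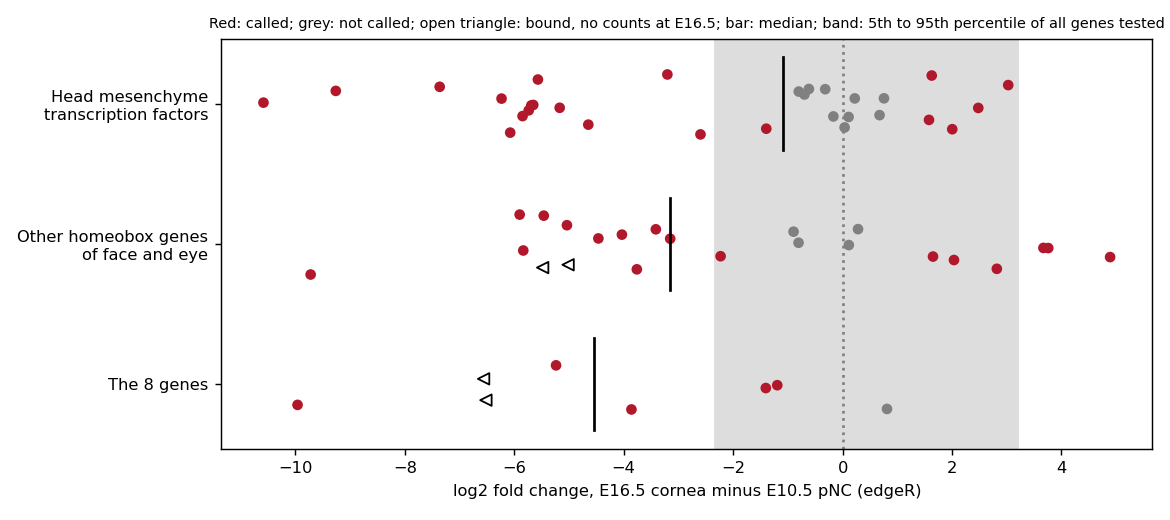
Log2 fold change from E10.5 pNC to E16.5 cornea (edgeR) of the 8 genes, of 23 other homeobox genes and of 30 head mesenchyme transcription factors, with red for called genes, grey for genes not called, open triangles for bounds of genes without counts at E16.5, black bars for list medians and a grey band for the 5th to 95th percentile of all genes tested. The list medians lie at -4.55, -3.15 and -1.10, and every list holds genes on both sides of 0.

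The genes most like each member over the 9 samples were taken by Pearson's r of log2(FPKM + 1) among 10942 genes with a mean of at least 5 FPKM in some stage. For most members the likeness reflects a difference between pNC and cornea that many genes share, so r is given as a description without a test. *Alx1* was most like *Igdcc3* (r = 0.998), *Lin28b* (0.997), a regulator of let-7 microRNAs, and *Hpse2* (0.997), and 599 genes passed an r of 0.95 with it. *Alx4* was most like *Thrap3* (0.998), *Rnf122* (0.997) and *Actb* (0.995), genes that changed by far smaller factors, and 1267 passed 0.95. *Prrx2* was most like *Prdm4* (0.990), *Rsl24d1* (0.989) and *Twnk* (0.989), with 820 past 0.95. Among the genes most like *Barx1* were *Ebf2* (0.9996) and *Tlx2* (0.999), and *Ebf2* and *Tlx2* were likewise listed in no cornea, from 12.2 and 5.57 FPKM in pNC. *Pax3* was most like *Hpse2* (0.992), *Alx1* (0.991) and *Wdr55* (0.986), and *Pax7* like *Tbx15* (0.991), *Gsc* (0.991) and *Ankrd6* (0.990).

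*Prrx1* and *Shox2* had few genes of a like pattern. For *Prrx1* the closest were *Etv1* (r = 0.982), *Ddr2* (0.980), a collagen receptor, and *Gstt1* (0.973), and 30 genes passed 0.95. *Ddr2* had 34.2, 57.2 and 59.4 FPKM in stage order. For *Shox2* the closest were *Reep1* (0.974), *Klhdc3* (0.968) and *Mapk8ip1* (0.962), and 4 genes passed 0.95. Like *Shox2*, these 3 genes were lowest at E14.5, *Reep1* at 7.30, 3.04 and 4.02 FPKM in stage order. They were chosen by their r with *Shox2*, so the like shape is no separate result. *Shox2* itself rests on 6 to 53 counts per sample, and its step between the corneas was not called.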

How the data were processed

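Per the paper's methods, the authors filtered the reads, mapped them to reference genes with Bowtie2 and to GRCm38 with HISAT, and quantified genes with RSEM, with no tool versions given in the sources used here. The deposited expected counts are RSEM estimates of fragments per gene without normalization, and the deposited FPKM values were scaled by the authors to transcript length and library total. The deposited length column, which has another unit, gives a gene's mean transcript length in bases, weighted by isoform. Genes at 0 are not listed, and the lowest listed count was 0.03.

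Symbols and gene positions came from RefSeq (GRCm38.p6) and sequences from GENCODE transcripts (GRCm38). Protein and promoter sequences were not used here. Expected counts were rounded, filtered by stage with filterByExpr, scaled with TMM and tested in 1 model of stage over all 9 samples by the quasi-likelihood method of edgeR 4.0.16 (R 4.3.3), and p-values were adjusted by Benjamini-Hochberg. The script was tested on simulated data. Limma 3.58.1 and DESeq2 1.42.0 served as alternatives. Paralog ratios used FPKM plus 0.01 and exact permutation tests over samples (scipy 1.17.1). Bounds rest on a floor of 3 counts per library and cover counting error only.

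The genes and lists were chosen with earlier results of these data known. Named besides the 8 genes were the 4 largest falls and 2 largest rises to E16.5 called in each list with a mean of at least 5 FPKM, and the 3 genes most like each member, of which some are not reported here. Replicate numbers in the labels were not used to pair the samples. Deviations from the stage means correlated at -0.0164 on average for equal numbers (9 pairs) and 0.00917 for unequal ones (18 pairs). Between E14.5 and E16.5, equal numbers correlated at 0.25, 0.12 and 0.06 and unequal ones at -0.21 to 0.11. The averages therefore cannot show that no pairing existed. No replicates were duplicates, since their counts differed by a chi-square of 3.03 to 27.9 for each degree of freedom.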

Additional observations from a re-analysis of the deposited data

Results flagged for a closer look

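The deposited transcript length of *Prrx1*, a column no comparison above uses, was 4744 ± 8.88 bases in pNC, 4735 ± 5.57 in E14.5 cornea and 4786 ± 7.22 in E16.5 cornea (SD, n = 3). It was looked at because it lies outside the main measurement, and the E16.5 mean was longer than the pNC mean by 41.65 bases with no overlap between samples. Of 2146 genes with several transcripts, 15.4% were longer at E16.5 than in pNC without overlap. The part of reads shared with other genes in this length was not tested.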

How the results depend on the processing

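Counts of the 8 genes called from E10.5 to E14.5 and to E16.5 stayed between 6 and 7 when any replicate was left out. From E14.5 to E16.5, 2 were called, but 1 with limma on log2(FPKM + 1), 1 in a fit of only those 6 samples, in which *Alx1* and *Pax3* had too few counts to be tested, and 1 to 4 when a replicate was left out, with 1 without E14.5 replicate 2 or E16.5 replicate 1 and 4 without E14.5 replicate 1. In the same comparison the other homeobox genes called numbered 4 and ranged from 2 (without E16.5 replicate 1) to 7 (without E14.5 replicate 1), and the mesenchyme factors numbered 6, with 2 under limma on log2(FPKM + 1), 13 without a minimum fold and 3 to 7 when a replicate was left out, 3 without E14.5 replicate 2 or E16.5 replicate 1. *Six2* between the corneas was 0.22, ran from -0.11 (without E16.5 replicate 1) to 0.69 when a replicate was left out, and was not called. The difference in the *Alx1*/*Alx4* ratio was -4.27 with E14.5 alone and -6.40 with E16.5 alone, that of *Prrx1*/*Prrx2* 1.58 and 2.19, each at p = 0.10, the smallest that 3 against 3 samples allow in an exact permutation test. Leaving out a replicate gave -5.66 to -4.84 and 1.80 to 2.01, and without a pNC replicate p was 0.0714, the smallest possible there. *Prrx2* was called at E14.5 without E10.5 replicate 1 (-1.04) or E14.5 replicate 3 (-1.12). *Shox2* at E16.5 (-0.85) and *Alx1* between the corneas (-0.74) were not called with limma on log2(FPKM + 1), on which low genes change less by construction, and *Pax3* between the corneas was called with library totals, DESeq2 or without E10.5 replicate 2 (adjusted p = 0.0374, 0.0117 and 0.0493). Library totals in place of TMM moved the median of all genes to -0.15 and -0.19 in the E16.5 comparisons. *Prrx1* was higher in cornea than in pNC under every alternative run. With the replicate number as a replicate block, 6, 7 and 2 of the 8 genes were called, as without it. Other causes of these changes were not tested. Depth limits *Shox2*, *Alx1* and *Pax3* in cornea.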
